A study of Mus musculus with 8 samples.

Results

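The genes described here are 8 genes of the SREBP2 pathway of cholesterol synthesis, *Hmgcs1*, *Idi1*, *Fdft1*, *Sqle*, *Lss*, *Cyp51*, *Srebf2*, and *Insig1*, in FCGR4+ and FCGR4- macrophages from mouse fat. They were taken by gene symbol as members of that pathway, and each matched 1 of the 54146 genes in the count table. All 8 were among the 17095 genes tested, those that reached 10 counts in 4 or more libraries. A list of 38 pathway genes, which holds the 8 and adds other enzymes, regulators of SREBP, and genes of cholesterol release and transport, was used to place them.

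The data comprised 8 bulk RNA-Seq libraries of sorted eWAT (epididymal white adipose tissue) macrophages, 1 FCGR4+ and 1 FCGR4- library from each of 4 mice. All 4 were labelled C57Bl6 and had eaten an obesogenic high-fat diet (with added cholesterol, per the study's methods) ad libitum for 24 weeks, followed by 2 weeks of short-term caloric restriction with 30% less food, so there was no unrestricted or lean group. According to the study's methods its mice were males, and the age of these animals was not in the labels. The study made many of its mice hypercholesterolemic, but whether these 4 were was not stated in the labels. From digested eWAT, CD45+ cells that carried CD11b and lacked CD3, B220, Ly6G, and SiglecF were split by an antibody to FCGR4, an Fcγ receptor for IgG. The animal IDs of mice 1 and 2 began with S395 and those of mice 3 and 4 with S491, and what the prefix stands for was not stated.

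Cells make cholesterol from acetyl-CoA through mevalonate, farnesyl diphosphate, squalene, and lanosterol. When sterols in the endoplasmic reticulum are scarce, SCAP carries the precursor of the transcription factor SREBP2 to the Golgi, where proteases release its active part, which turns on the genes of the synthesis enzymes and of lipoprotein uptake. When sterols are plentiful, INSIG proteins hold SCAP back, and the whole set of genes falls together. Macrophages of obese adipose tissue also take up lipid from dying adipocytes and hydrolyze it in lysosomes.

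Total counts lay between 35992794 and 66856746 per library. *Fcgr4*, the gene of the sorted protein, ranged from 138.6 to 236.4 normalized CPM (counts scaled to library size after TMM correction for differences in composition) in FCGR4+ and from 48.5 to 82.9 in FCGR4- libraries, with a log2 fold change of 1.61 ± 0.17 (SE, n = 4 pairs, edgeR adjusted *P* = 0.0162). Macrophage marker genes, 12 of 12 of which were tested, summed to 30230 to 55320 normalized CPM in FCGR4+ and to 24500 to 48700 in FCGR4- libraries, higher in FCGR4+ in 4 of 4 mice. Markers of several other cell types were more abundant in FCGR4- libraries. The sum of 11 mast cell and basophil markers was 14.5 to 30.5 in FCGR4+ and 394.7 to 2171 in FCGR4- libraries, and 10 of the 10 tested passed the threshold (adjusted *P* under 0.1) as lower in FCGR4+, as did 1.19% of all genes. The other, *Mcpt8*, had 0 counts in every FCGR4+ library and 71, 0, 1, and 13 in the FCGR4- libraries. For 12 dendritic cell markers the sums were 24.4 to 35.4 and 83.25 to 157.8 (6 of 12 passed), for 13 T and NK cell markers 4.77 to 15.0 and 22.1 to 81.1 (8 of 12), for 8 B cell markers 179.7 to 334.1 and 409.9 to 2325 (2 of 6), for 10 neutrophil markers 126.3 to 582.6 and 403.4 to 2663 (6 of 9), and for 10 fibroblast markers 200.2 to 615.0 and 390.5 to 1736 (6 of 10). For 10 adipocyte markers the sums were 294.3 to 303.2 and 205.3 to 315.5, higher in FCGR4+ in 3 of 4 mice, although 8 of the 10 had a log2 fold change below 0 and *Fabp4* had the highest at 0.70. Summed monocyte markers were higher in FCGR4+ in 2 of 4 mice. The part of these cells in the results below was not tested, and in bulk libraries fewer cells of a type and less RNA per cell cannot be told apart.

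Do FCGR4+ macrophages carry more or less message for cholesterol synthesis than FCGR4- macrophages of the same mouse? In these libraries, 0 of the 8 genes passed the threshold in edgeR's paired quasi-likelihood test, in which mouse was a block, against 1.27% of all genes tested (0.0819% higher and 1.19% lower in FCGR4+). At an unadjusted *P* under 0.05, 3 of the 8 were higher in FCGR4+ macrophages, against 3.1% of all genes, and 0 were lower, against 6.67%. DESeq2, which called 5.99% of all genes (1.12% higher and 4.87% lower), and edgeR's newer quasi-likelihood method, which called 3.68% (0.333% higher), also called 0 of the 8. *Hmgcs1*, *Idi1*, *Cyp51*, and *Insig1* were higher in the FCGR4+ library in 4 of 4 mice, which held for 8.35% of all genes tested, and 0 of the 8 were lower in 4 of 4 mice. The median log2 fold change of the 8 was 0.20, beside -0.0030 over all genes tested, and the 8 values ran from -0.29 for *Srebf2* to 0.48 for *Hmgcs1*. Macrophage marker genes had a median of 0.28 (12 genes) and genes of proliferation 0.45 (22 genes), and their part in the values of the 8 was not tested.

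The promoters of these 4 genes with the same direction in every mouse are shown for some of the letters that SREBP2 and its partner factors are known to recognize. Each is the 150 bases before the RefSeq transcription start on GRCm38.p6, the assembly that mm10 also names, written 5′ to 3′ on the strand of the gene. The letters searched were TCACCCCAC and TCACNCCAC, which includes it (sterol regulatory elements), CCAAT (bound by NF-Y), GGGCGG (bound by Sp1), and CACGTG (an E-box that reads the same on both strands). Both strands were searched, and capitals mark every match, so that CCAAT on the other strand appears as ATTGG and GGGCGG as CCGCCC.
Hmgcs1, chr13:119690201-119690350, plus strand: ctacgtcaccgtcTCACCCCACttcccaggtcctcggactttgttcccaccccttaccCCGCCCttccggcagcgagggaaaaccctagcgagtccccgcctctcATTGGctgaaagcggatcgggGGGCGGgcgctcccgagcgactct
Idi1, chr13:8885456-8885605, plus strand: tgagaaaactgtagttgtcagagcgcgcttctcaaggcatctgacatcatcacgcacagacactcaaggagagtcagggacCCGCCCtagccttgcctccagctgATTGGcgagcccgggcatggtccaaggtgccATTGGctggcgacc
Insig1, chr5:28071262-28071411, plus strand: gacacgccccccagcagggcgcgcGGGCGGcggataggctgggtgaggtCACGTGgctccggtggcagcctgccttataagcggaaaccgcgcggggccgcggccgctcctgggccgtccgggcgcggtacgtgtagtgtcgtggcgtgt
Cyp51, chr5:4104698-4104847, minus strand: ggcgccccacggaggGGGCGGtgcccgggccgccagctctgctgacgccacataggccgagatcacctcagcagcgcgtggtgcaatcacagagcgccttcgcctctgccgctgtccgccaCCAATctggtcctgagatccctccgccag

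*Hmgcs1* was the only one of the 6 members with a RefSeq promoter entry that held TCACCCCAC in the whole window of 300 bases (250 before the start and 50 after it), with its first base 137 bases before the start. Of all 32851 promoters, 0.551% held those letters and 1.24% held TCACNCCAC. CCAAT was found in 6 of these 6 promoters and in 37.4% of all promoters, and GGGCGG in 6 of 6 and in 35.7%. *Insig1* alone of the 6 held CACGTG, which 7.15% of all promoters held. Over the 38 pathway genes, 31 had a promoter entry (43 windows, since some had several). Of these 31, 26 held CCAAT, 28 held GGGCGG, 7 held CACGTG, and 1 (*Hmgcs1*) held TCACNCCAC in any of their windows. A match is a description of letters, not of a bound site. Other forms of the sterol regulatory element were not searched, so a missing match does not show that a site is absent.

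*Hmgcs1* (ENSMUSG00000093930, chr13:119690379-119708260, mm10, plus strand) encodes cytosolic HMG-CoA synthase, an early enzyme on the way to mevalonate. *Hmgcs1* stood at 34.8, 36.8, 26.8, and 23.1 normalized CPM in the FCGR4+ libraries of mice 1, 2, 3, and 4 and at 27.4, 33.9, 11.7, and 18.9 in their FCGR4- libraries. The FCGR4+ value was the higher one in every mouse, but the populations overlapped, since the FCGR4- libraries of mice 1 and 2 were above the FCGR4+ libraries of mice 3 and 4. Its log2 fold change was 0.48 ± 0.20 (SE) with a 95% interval of 0.0046 to 0.96 (edgeR adjusted *P* = 0.510). Mouse 3 had the widest gap, and without that mouse the log2 fold change was 0.240. A share of 12.1% of its exon bases also belongs to the antisense gene *Gm48342*, and pairs in shared exons were assigned to neither gene. The level of *Gm48342*, at most 0.277 normalized CPM, leaves those pairs out.

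*Idi1* (ENSMUSG00000058258, chr13:8885501-8892451, plus strand) encodes isopentenyl diphosphate isomerase, which makes one of the isoprene units from which farnesyl diphosphate is built. *Idi1* stood at 22.7, 18.8, 18.4, and 14.45 normalized CPM in the FCGR4+ libraries of mice 1 to 4 and at 16.4, 15.2, 13.05, and 12.45 in the FCGR4- libraries. Only the FCGR4+ library of mouse 4 fell within the FCGR4- range. With a log2 fold change of 0.37 ± 0.15 (SE) and a 95% interval of 0.020 to 0.72, *Idi1* did not pass after adjustment (edgeR adjusted *P* = 0.488). Of the 50-base stretches of its exons, 25.3% occur in other genes, 17.7% in *Gm13502*, and since read pairs that mapped to several places were counted at each, its counts may hold some of those genes.

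*Cyp51* (ENSMUSG00000001467, chr5:4081145-4104746, minus strand) encodes lanosterol demethylase, the first enzyme after lanosterol. *Cyp51* stood at 36.3, 26.75, 24.2, and 28.9 normalized CPM in the FCGR4+ libraries of mice 1 to 4 and at 32.6, 18.7, 18.85, and 20.9 in the FCGR4- libraries. Apart from the FCGR4- library of mouse 1, the FCGR4- libraries lay below every FCGR4+ library. The log2 fold change was 0.37 ± 0.14 (SE), with a 95% interval of 0.046 to 0.70, the smallest *P* value of the 8 (edgeR adjusted *P* = 0.443; DESeq2 adjusted *P* = 0.275).

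*Insig1* (ENSMUSG00000045294, chr5:28071363-28078662, plus strand) encodes one of the sterol-sensing proteins that retain SCAP, and is itself an SREBP target. *Insig1* stood at 30.2, 34.03, 30.6, and 31.6 normalized CPM in the FCGR4+ libraries and at 23.2, 26.3, 29.05, and 27.7 in the FCGR4- libraries of mice 1 to 4. It was the only one of the 8 whose populations did not overlap, with every FCGR4+ library above every FCGR4- library, as for 0.883% of all genes tested. The gap between the lowest FCGR4+ and the highest FCGR4- library was narrow, and with a log2 fold change of 0.25 ± 0.14 (SE) and a 95% interval of -0.064 to 0.57 *Insig1* did not pass (edgeR adjusted *P* = 0.577).

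The steps from farnesyl diphosphate through squalene to lanosterol are made by the products of *Fdft1*, *Sqle*, and *Lss*, and here the mice went different ways. *Sqle* (ENSMUSG00000022351, chr15:59315077-59331192, plus strand), which encodes squalene epoxidase, a rate-limiting enzyme, stood at 15.6, 13.8, 11.5, and 9.13 normalized CPM in FCGR4+ libraries and at 17.3, 9.92, 14.8, and 12.3 in FCGR4- libraries of mice 1 to 4. Only in mouse 2 was the FCGR4+ library the higher one. Its log2 fold change was -0.12 ± 0.20 (SE; 95% interval -0.59 to 0.36; edgeR adjusted *P* = 0.847), and it was -0.282 without mouse 2 and -0.014 without mouse 4.

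*Fdft1* (ENSMUSG00000021273, chr14:63145150-63179578, minus strand) encodes squalene synthase and stood at 7.94, 15.2, 8.14, and 9.98 normalized CPM in FCGR4+ libraries and at 8.83, 9.59, 12.1, and 8.15 in FCGR4- libraries. Mice 2 and 4 were higher in FCGR4+ and mice 1 and 3 lower, and the log2 fold change was 0.057 ± 0.24 (SE; 95% interval -0.51 to 0.62; edgeR adjusted *P* = 0.944). Of its exon bases, 18.3% overlap *Ctsb*, the gene of the lysosomal protease cathepsin B, on the other strand. *Ctsb* had a mean of 13064 normalized CPM over the 8 libraries, and strand was not used in counting, so reads of these genes near the overlap cannot be told apart.

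*Lss* (ENSMUSG00000033105, chr10:76531588-76557138, plus strand) encodes lanosterol synthase and stood at 7.76, 9.34, 4.25, and 5.11 normalized CPM in FCGR4+ libraries and at 6.63, 8.12, 3.14, and 6.33 in FCGR4- libraries. Mouse 4 alone had the lower value in FCGR4+ macrophages, and the log2 fold change was 0.14 ± 0.21 (SE; 95% interval -0.36 to 0.63; edgeR adjusted *P* = 0.828), and it was 0.029 without mouse 3 and 0.287 without mouse 4.

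*Srebf2* (ENSMUSG00000022463, chr15:82147181-82205379, plus strand) encodes SREBP2 itself. *Srebf2* stood at 74.0, 78.0, 47.1, and 58.4 normalized CPM in FCGR4+ libraries and at 73.8, 64.7, 82.4, and 90.9 in FCGR4- libraries of mice 1 to 4. The FCGR4+ libraries of mice 3 and 4 were the lowest of the 8 and the FCGR4- libraries of the same mice the highest, whereas mice 1 and 2 lay between. Over the 4 mice the log2 fold change was -0.29 ± 0.21 (SE; 95% interval -0.78 to 0.19; edgeR adjusted *P* = 0.649), and it ran from -0.450 without mouse 2 to -0.133 without mouse 3. Fitted alone, mice 1 and 2 gave 0.135 and mice 3 and 4 gave -0.743 (edgeR adjusted *P* = 0.999 and 0.1403).

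The difference between the ID prefixes was tested with an interaction term, chosen after the values of each mouse had been seen. For *Srebf2* it was -0.86 ± 0.21 (SE) on the log2 scale, mice 3 and 4 minus mice 1 and 2, and did not pass after adjustment (edgeR adjusted *P* = 0.304). Of all genes tested, 0 passed for this term, and 13.8% had an unadjusted *P* under 0.05. Among the 38 pathway genes that share was 10.5% (4 genes), close to the background: *Srebf2*, *Lbr*, *Mbtps1*, and *Gramd1a*, in each of which the population difference was the more negative in mice 3 and 4. For the other 7 members the term ran from -0.56 (*Sqle*) to 0.51 (*Hmgcs1*), with adjusted *P* values of at least 0.490. *Idi1* gave 0.390 in mice 1 and 2 alone and 0.333 in mice 3 and 4 alone, *Cyp51* 0.332 and 0.393, *Insig1* 0.375 and 0.113, *Hmgcs1* 0.231 and 0.722, *Sqle* 0.159 and -0.416, *Fdft1* 0.254 and -0.162, and *Lss* 0.212 and 0.040.

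**Figure D1:**
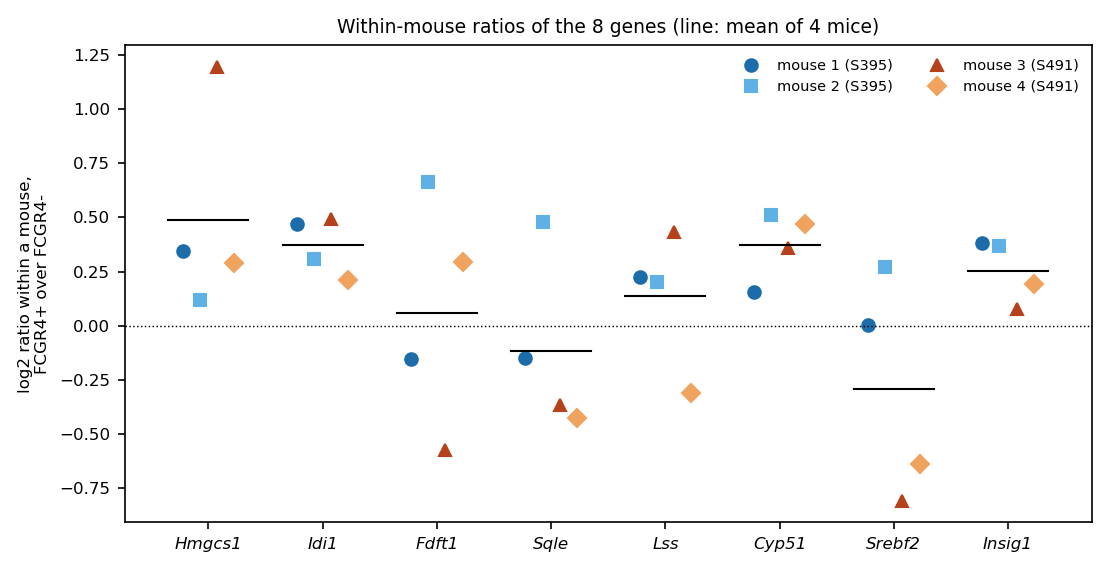
Log2 ratio of FCGR4+ over FCGR4- within each mouse (y axis, log2 CPM with a prior count of 2) for the 8 genes, with a line at the mean of 4 mice and colors by ID prefix. *Idi1* runs from 0.213 to 0.491 and *Srebf2* from -0.807 to 0.270, and *Hmgcs1* in mouse 3 is the highest point at 1.193.

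The level of some of the 8 differed more between mice than between populations. *Hmgcs1* ranged from 27.4 to 36.8 normalized CPM in the libraries of mice 1 and 2 and from 11.7 to 26.8 in those of mice 3 and 4, without overlap. *Lss* likewise ranged from 6.63 to 9.34 and from 3.14 to 6.33. These were 2 of 8 genes (25%), where 7.92% of all genes tested had every library of mice 1 and 2 above every library of mice 3 and 4, and 8.49% had them below, as did 0 of the 8. The mean of *Lss* within a mouse differed by up to 1.245 on the log2 scale between mice, and that of *Insig1*, the steadiest, by up to 0.178. The summed level of the 8 was 171.0 to 232.9 normalized CPM in FCGR4+ and 185.2 to 206.1 in FCGR4- libraries, higher in FCGR4+ in 2 of 4 mice. Monocyte markers also differed between these mice, with sums of 356.0 to 667.1 normalized CPM in the libraries of mice 1 and 2 and 2198 to 3232 in those of mice 3 and 4. As for *Srebf2*, the population difference of several other measures turned with the prefix. The sum of 10 genes induced by tissue dissociation was higher in FCGR4+ in mice 1 and 2 (9669 and 8931 normalized CPM against 7626 and 8529) and lower in mice 3 and 4 (7602 and 6020 against 10280 and 8493). The share of mitochondrial counts was lower in FCGR4+ in mice 1 and 2 (8.31% and 4.35% against 9.88% and 6.43%) and higher in mice 3 and 4 (7.87% and 6.67% against 5.21% and 4.13%). The sums of the 8 genes, of 11 genes of fatty acid synthesis, and of 5 genes of lipoprotein uptake also turned, higher in FCGR4+ in mice 1 and 2 and lower in mice 3 and 4. For fatty acid synthesis they were 228.8 and 236 against 228.3 and 220.6, then 127.5 and 174.2 against 237.8 and 191. The part of these measures in the differences by prefix, that of *Srebf2* included, was not tested.

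Levels of different genes were compared as CPM per kilobase of merged exons, the gene length given beside the counts. *Srebf2* at 9.91 ± 1.94 (SD, n = 8 libraries) and *Insig1* at 9.41 ± 1.085 were the highest of the 8, with *Insig1* above *Srebf2* in 3 of 4 FCGR4+ libraries and in 0 of 4 FCGR4- libraries. The enzymes followed, with *Cyp51* at 5.865 ± 1.46, *Hmgcs1* at 5.81 ± 1.875, *Idi1* at 4.69 ± 0.973, *Fdft1* at 2.37 ± 0.596, and *Sqle* at 2.35 ± 0.512. *Lss* was the lowest at 0.587 ± 0.193, and it was the only one whose range over the 8 libraries did not overlap that of its neighbor in this order. The median over all genes tested was 2.53 CPM per kilobase, and the 8 lay between the 25.2 and 74.8 percentiles of those genes, so these were mRNAs of middling abundance. Merged exons of all transcripts make a long gene model such as that of *Lss*, with 10787 bases, look low on this scale.

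The 8 genes did not move as 1 unit over the 8 libraries. Among their 28 pairs the median correlation of log2 CPM was 0.086, from -0.312 to 0.841, with 5 pairs above 0.5 and 10 below 0. *Hmgcs1* went most closely with *Lss* (0.841) and *Idi1* (0.754), and *Idi1* with *Cyp51* (0.698), while *Srebf2*, whose product acts on the others, ran from -0.312 with *Idi1* to 0.525 with *Sqle* and was above 0 with 3 of the other 7 (*Sqle*, *Fdft1*, and *Lss*). These are descriptions over 8 libraries from 4 mice, which share mouse and depth. The mean of the 8 genes' standardized levels was highest in the FCGR4+ libraries of mice 2 and 1 (0.927 and 0.668), and lay between -0.445 and 0.115 in the other 6 libraries. Outside the gene lists, 7968 genes with a mean of at least 10 normalized CPM were compared with this mean, and the 10 most like it were *Nrp1*, which encodes a co-receptor for semaphorins and VEGF (Pearson's r = 0.937), *Abhd17c* (0.933), *Rdh14* (0.932), *Gm8326* (0.930), *Unc93b1*, which encodes the chaperone of endosomal Toll-like receptors (0.922), *Gm8337* (0.919), *Itga9*, which encodes an integrin chain (0.917), *Gm7232* (0.917), *Slc30a5*, which encodes a zinc transporter (0.916), and *Pltp*, which encodes phospholipid transfer protein (0.912). With 8 libraries and this many genes, 18 genes reached an r above 0.9, and 0 of the 10 named passed the threshold between populations in edgeR's test (adjusted *P* of 0.510 to 0.783).

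**Figure D2:**
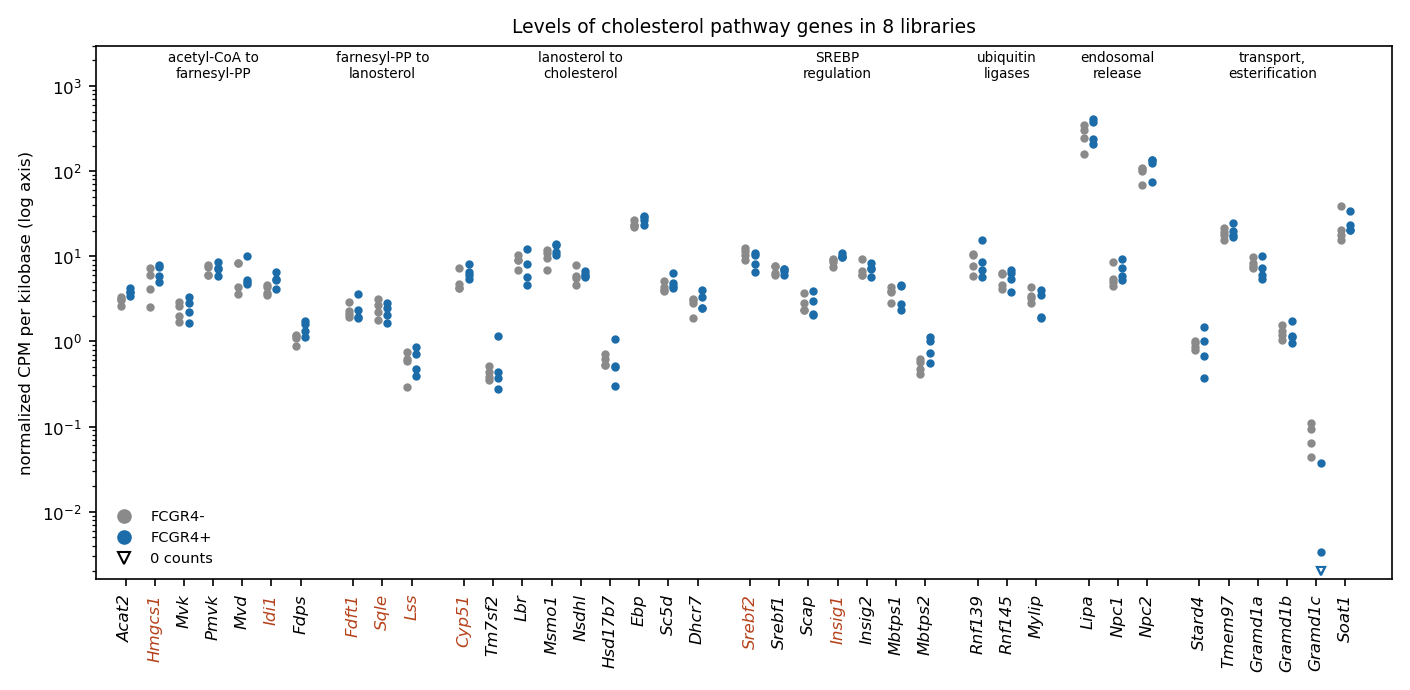
Normalized CPM per kilobase (log y axis) of the 38 pathway genes by role, with 1 point for each of 4 FCGR4- and 4 FCGR4+ libraries, members in red on the x axis, and open triangles at the lower edge for 0 counts. *Lipa* and *Npc2* lie far above the enzymes, and *Gramd1c* far below.

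The rest of the pathway was then read in the order of synthesis. Of the 38 pathway genes, all of which were tested, 0 passed the threshold in edgeR's test, with 5 at an unadjusted *P* under 0.05 (4 higher and 1 lower in FCGR4+, where 3.1% of all genes were higher and 6.67% lower). The newer quasi-likelihood method called 0 and DESeq2 called 1, *Gramd1c*. Their median log2 fold change was 0.084, and 10 of the 38 (26.3%) were higher in FCGR4+ in 4 of 4 mice, where 8.35% of all genes were, while 1 was lower in 4 of 4 mice, where 10.4% of all genes were. Any difference counted here, and *Ebp* is among the 10 with log2 ratios of 0.000 in mouse 1 and 0.007 in mouse 4.

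The 7 enzyme genes of the list from acetyl-CoA to farnesyl diphosphate all had a log2 fold change above 0 over the 4 mice (*Pmvk* and *Mvd* fell below 0 with library size alone). Of all 17095 genes tested, 8500 were above 0. The median of the 7 was 0.34, and 4 of 7 were higher in 4 of 4 mice, as were 8.35% of all genes. Besides *Hmgcs1* and *Idi1*, these 4 were *Acat2* and *Fdps*. *Acat2*, which encodes an acetyl-CoA acetyltransferase, had a log2 fold change of 0.34 ± 0.19 (SE; edgeR adjusted *P* = 0.594), or 0.210 without mouse 4. Its FCGR4+ libraries (8.67 to 10.9 normalized CPM) were all above its FCGR4- libraries (6.61 to 8.37), as for 0.883% of all genes tested. However, 39.1% of its 50-base stretches also occur in *Acat3* (2.09 normalized CPM) and 11.2% in *Tcp1* (121.1), beside 8.72 for *Acat2* itself. The counts of *Acat2* may therefore hold reads of both. *Fdps*, which encodes farnesyl diphosphate synthase, had 0.42 ± 0.23 (SE; edgeR adjusted *P* = 0.587). With a mean of 5.305 normalized CPM, *Fdps* shares 12.1% of its 50-base stretches with *Gm3571* (7.90), so its counts may hold reads of that gene. *Fdps* also shares 26.7% of its exon bases with *Gm43738* (0), and pairs in shared exons were assigned to neither gene. *Mvk*, *Pmvk*, and *Mvd*, which encode mevalonate kinase, phosphomevalonate kinase, and mevalonate diphosphate decarboxylase, had log2 fold changes of 0.11, 0.058, and 0.051, and *Mvk* and *Pmvk* were higher in FCGR4+ in 2 of 4 mice. *Mvk* was -0.085 without mouse 2 and -0.128 without mouse 3, and *Mvd* was -0.085 without mouse 1.

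After lanosterol, 7 of 9 enzyme genes had a log2 fold change above 0 (6 of 9 with library size alone, where *Nsdhl* fell below 0). Of the 9, 3 were higher in 4 of 4 mice, as were 8.35% of all genes (*Cyp51*, *Msmo1*, and, with nearly equal values in mice 1 and 4, *Ebp*). *Msmo1*, which encodes a sterol methyl oxidase, stood at 84.3, 86.2, 68.8, and 63.6 normalized CPM in FCGR4+ libraries and at 73.6, 66.4, 43.0, and 59.2 in FCGR4- libraries. The populations overlapped although each mouse had the higher value in FCGR4+, and the log2 fold change was 0.34 ± 0.15 (SE; edgeR adjusted *P* = 0.513), or 0.214 without mouse 3. *Ebp*, which encodes a sterol isomerase, had 0.19, and *Sc5d* and *Dhcr7*, which encode the sterol desaturase and the reductase of the last steps, had 0.19 and 0.18. *Nsdhl*, *Hsd17b7*, and *Tm7sf2*, which shares 47.2% of its exon bases with other genes, had 0.059, -0.13, and 0.20, and *Lbr*, which encodes the lamin B receptor, a sterol reductase, had -0.29, which was -0.545 without mouse 1 and -0.003 without mouse 3. *Tm7sf2* was -0.268 without mouse 3, whose FCGR4+ library had 6.53 normalized CPM beside 1.56 to 2.88 in the other 7 libraries, *Nsdhl* was -0.029 without mouse 2, and *Hsd17b7* was 0.231 without mouse 3.

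**Figure D3:**
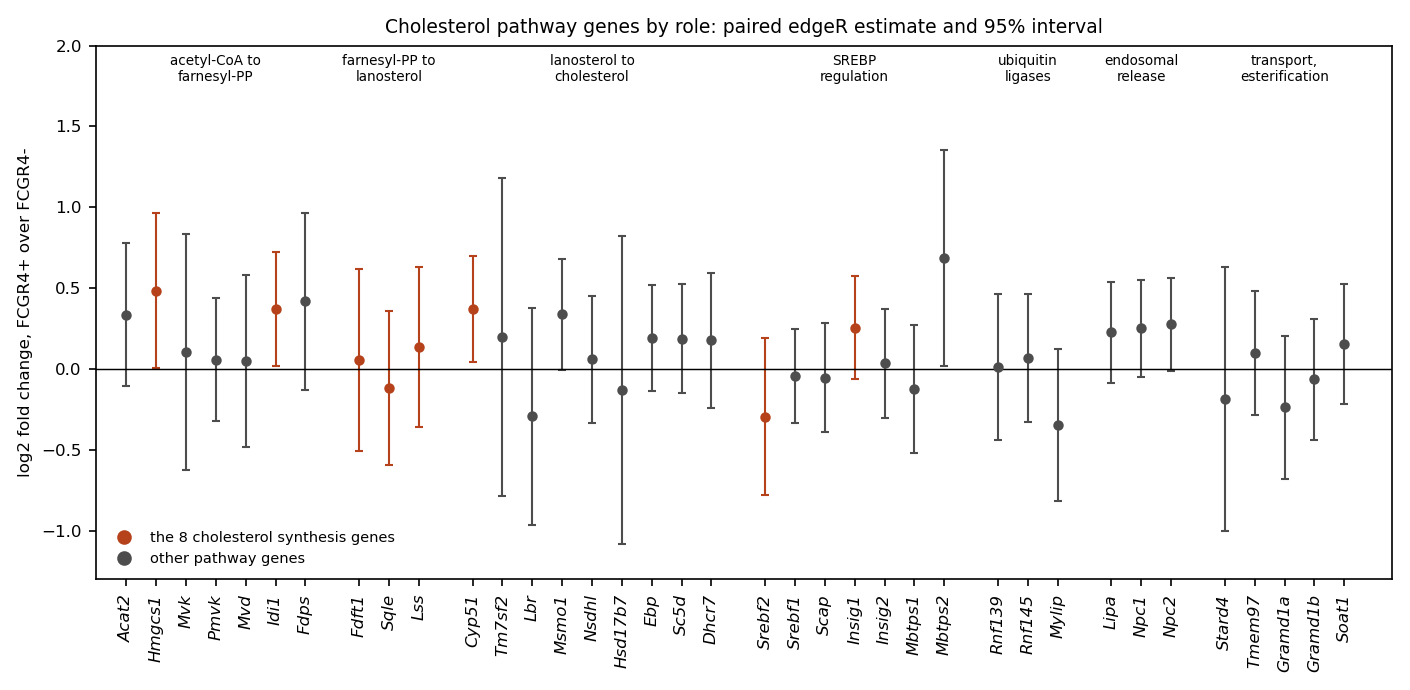
Log2 fold change of FCGR4+ over FCGR4- (y axis; edgeR, mouse as block) with 95% intervals for 37 of the 38 pathway genes by role, the 8 members in red. *Gramd1c*, with few counts and a wide interval, is left out. The enzymes up to farnesyl diphosphate all lie above 0 (with library size alone *Pmvk* and *Mvd* would not), and every interval that excludes 0 does so narrowly.

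Among the 7 genes of SREBP regulation, 3 had a log2 fold change above 0 and 4 below, with a median of -0.043. *Mbtps2*, which encodes the site-2 protease that frees SREBP from the membrane, had the highest of the pathway over the 4 mice. *Mbtps2* stood at 10.2, 5.595, 11.4, and 7.43 normalized CPM in FCGR4+ libraries and at 5.85, 6.30, 4.15, and 4.75 in FCGR4- libraries of mice 1 to 4. Mouse 2 was the one with the lower FCGR4+ value, and the log2 fold change was 0.69 ± 0.28 (SE; edgeR adjusted *P* = 0.499). It was 0.42 without mouse 3 and 0.325 in mice 1 and 2 alone, below the 0.53 of *Fdps* in both. A share of 28.4% of its exon bases belongs also to *Yy2*, a gene on the same strand. Pairs in shared exons were assigned to neither gene, so *Mbtps2* may have lost counts there. For the same reason the 0 counts of *Yy2* in every library do not show that it was silent. *Scap*, *Srebf1*, *Insig2*, and *Mbtps1*, which encode the escort protein, SREBP1, the second INSIG, and the site-1 protease, had log2 fold changes of -0.054, -0.043, 0.036, and -0.12. Of 3 genes of ubiquitin ligases linked to sterol metabolism, *Mylip* had -0.35 ± 0.20 (SE; edgeR adjusted *P* = 0.599), *Rnf139* 0.015, and *Rnf145* 0.068. *Mylip* was -0.219 without mouse 3, -0.049 in mice 1 and 2 alone, and -0.667 in mice 3 and 4 alone.

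On the side of lipoprotein uptake, 5 genes outside the pathway list were measured, of which 4 encode receptors and *Lrpap1* a chaperone of such receptors. Of these, 0 passed in edgeR's test, with 1 lower at an unadjusted *P* under 0.05 (6.67% of all genes were), and their median was -0.14, the value of *Lrpap1*. They ran from -1.91 (*Lrp8*) to 0.18 (*Scarb1*). *Lrp8* had an SE of 0.98 on 10 to 248 counts, and it was higher in FCGR4+ in mouse 1 and lower in the other 3 mice. DESeq2 called 1, *Vldlr*, as lower in FCGR4+ (adjusted *P* = 0.0791), as it did 4.87% of all genes. *Vldlr*, with at most 2.63 normalized CPM, had a log2 fold change of -1.875 ± 0.65 (SE; edgeR adjusted *P* = 0.395). It was lower in FCGR4+ in 4 of 4 mice, as were 10.4% of all genes. Its FCGR4+ libraries were all below its FCGR4- libraries, as for 3.02% of all genes.

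Of the 3 genes of cholesterol release from endosomes and lysosomes, *Lipa* and *Npc2* had the highest levels per length of the pathway. *Lipa*, which encodes lysosomal acid lipase, had 288.1 ± 89.4 CPM per kilobase (SD, n = 8 libraries) and *Npc2*, which encodes a lysosomal cholesterol carrier, 106.7 ± 25.0, at the 98.6 and 96 percentiles of tested genes, against 6.42 ± 1.78 for *Npc1* and 5.81 ± 1.875 for *Hmgcs1*. All 3 genes of this group had a log2 fold change above 0, with *Lipa* at 0.23 ± 0.13, *Npc1* at 0.25 ± 0.13, and *Npc2* at 0.28 ± 0.12 (SE; edgeR adjusted *P* = 0.600, 0.563, and 0.518). *Npc2* stood at 411.2, 727.4, 671.7, and 743.8 normalized CPM in FCGR4+ libraries and at 371.8, 575.5, 552.8, and 587.5 in FCGR4- libraries, higher in FCGR4+ in 4 of 4 mice, as was *Npc1*. *Lipa* was higher in 3 of 4 mice and ranged from 917.1 to 1234 in the libraries of mice 1 and 2 and from 478.4 to 724.8 in those of mice 3 and 4. The populations overlapped in each of the 3 genes.

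Of the genes of transport within cells and esterification, *Soat1*, which encodes the enzyme that esterifies cholesterol for storage, had 0.16 ± 0.16 (SE; edgeR adjusted *P* = 0.738) at 23.9 ± 8.19 CPM per kilobase (SD, n = 8 libraries), and the log2 fold change was 0.020 without mouse 1 and 0.296 without mouse 2. *Tmem97* had 0.099, *Stard4*, an SREBP2 target that encodes a sterol carrier, -0.19, and *Gramd1a* and *Gramd1b*, which encode sterol transporters between membranes, -0.24 and -0.064. With 1 mouse left out at a time, *Tmem97* ran from 0.003 to 0.214, *Gramd1a* from -0.363 to -0.089, and *Gramd1b* from -0.105 to -0.007. *Gramd1c*, of the same family, was the only pathway gene lower in FCGR4+ in 4 of 4 mice. *Gramd1c* stood at 0.0169, 0.187, 0, and 0 normalized CPM in FCGR4+ libraries and at 0.554, 0.324, 0.4695, and 0.220 in FCGR4- libraries. Its FCGR4+ libraries were all below its FCGR4- libraries, as for 3.02% of all genes tested. It had 36 counts at most, and the log2 fold change was -3.98 ± 1.28 (SE; edgeR adjusted *P* = 0.342), whereas DESeq2 called it (adjusted *P* = 0.0417), as it did 4.87% of all genes as lower. With these few counts the estimate ran from -5.89 to -3.16 when 1 mouse was left out.

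Neighboring lipid pathways served as a comparison. Of 11 genes of fatty acid synthesis, the targets of SREBP1, 0 passed in edgeR's test, in the newer method, or in DESeq2, with 1 lower at an unadjusted *P* under 0.05, where 6.67% of all genes were. Their median log2 fold change was -0.53, 7 of 11 were below 0, and they ran from -1.05 (*Elovl6*) to 0.35 (*Acacb*, with an SE of 1.72 and at most 28 counts in a library), while 0 of 11 were higher in 4 of 4 mice and 2, *Elovl6* and *Fads2*, were lower in 4 of 4 mice (10.4% of all genes were). The summed level of the 11 was higher in FCGR4+ in mice 1 and 2 and lower in mice 3 and 4. A list of 11 genes held 10 of the isoprenoid branch, which leaves the pathway at farnesyl diphosphate, and these 10 were tested. Of them, 0 passed in edgeR's test, in the newer method, or in DESeq2, and 0 had an unadjusted *P* under 0.05. Their median was 0.042, from -0.37 (*Pdss1*) to 0.32 (*Fntb*). The other gene of this list, *Idi2*, is the second isomerase gene and belongs to the step of *Idi1*, before farnesyl diphosphate. It had no more than 1 count in any library and was not tested. No difference between these lists was tested.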

How the data were processed

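The deposited values are whole-number counts of read pairs per gene in 8 libraries, made by the authors with STAR (mm10) and featureCounts 1.6.3 on GENCODE vM18; per the file headers pairs were counted once at each place they mapped to, and strand was not used. All 8 sample columns entered the analysis. Groups and mice came from the labels. Total counts were 35992794 to 66856746, and 3 counts correspond to 0.0440 to 0.0883 normalized CPM, which covers counting error only.

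The 17095 genes that reached 10 counts in 4 or more libraries were scaled by TMM and tested with edgeR 4.0.16 (R 4.3.3; quasi-likelihood test, default settings) with mouse as a block, as the study's paired model has it, Benjamini-Hochberg adjustment, and a threshold of 0.1. Intervals are 95%. The pairing is the animal in the labels: deviations from the population means correlated at 0.291 to 0.428 within a mouse and at -0.336 to 0.0116 between mice. Since the deviations are centered on 4 mice, positive values within a mouse force lower ones between mice, which add no support of their own. Libraries of the same population differed by far more than sampling noise (chi-square per degree of freedom of at least 82.9). The fits were tested on simulated data. Alternatives were no replicate block, DESeq2 1.42.0, edgeR's newer quasi-likelihood method, RLE factors, library size alone, other filters, a threshold of 0.05, 1 mouse left out at a time, the mice of each ID prefix alone, and, added after the data were seen, an interaction of population and prefix.

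The 8 genes, the gene lists, and the markers were chosen with earlier results of these data known. Named genes are the 8, every gene of the pathway list, the highest and lowest of each neighboring list (or genes past the threshold), *Fcgr4*, and the 10 genes outside the lists with the highest correlation with the 8 genes' mean. *Ctsb*, *Vldlr*, *Lrpap1*, *Fads2*, *Fabp4*, *Mcpt8*, *Idi2*, and the genes that share exons or sequence with a member or with *Acat2*, *Fdps*, or *Mbtps2* were named after their values were seen. Shared exons were computed from the deposited annotation, and shared sequence from 50-base words of GENCODE transcripts of a newer release on that build. Promoters are RefSeq sequences on GRCm38.p6, of which 6 of the 8 genes had an entry. Some genes of the pathway are not reported here, and counts over the pathway list leave them out.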

Additional observations from a re-analysis of the deposited data

Results flagged for a closer look

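In groups of 4 libraries, a library was singled out where its distance from the nearest other library made up more of the group's range than 95% of random groups of 4 would show. Among the members, this was the case for *Cyp51* in the FCGR4- library of mouse 1, at 32.6 normalized CPM beside 18.7 to 20.9 in the other 3 mice, a gap of 0.846 of the range. In the pathway list, *Mvd* in the FCGR4+ library of mouse 2 at 18.9 beside 8.90 to 9.805 (0.909), *Npc2* in the FCGR4- library of mouse 1 at 371.8 beside 552.8 to 587.5 (0.839), and *Gramd1c* in the FCGR4+ library of mouse 2 at 0.187 beside 0 to 0.0169 (0.910), the last on very few counts. Of 117 groups of 4 examined, 4 were singled out, where chance gives about 1 in 20 groups (5.85).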

How the results depend on the processing

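None of the 8 members passed the threshold under any of 14 alternatives (edgeR or DESeq2 adjusted *P* of 0.1403 to 0.9999, the smallest for *Srebf2* in mice 3 and 4 alone). *Hmgcs1*, *Idi1*, *Insig1*, *Cyp51*, and *Lss* stayed above 0 in all 14, at 0.231 to 0.722, 0.283 to 0.425, 0.113 to 0.375, 0.284 to 0.446, and 0.029 to 0.287 on the log2 scale. *Fcgr4* kept its direction and its call in all 14. The fit without the replicate block, which ignores the pairing by mouse, called 48 genes (1 higher and 47 lower) in place of 217 (14 and 203), with 0 members and 0 pathway genes in either, and turned *Hsd17b7* to 0.011, the only sign it changed among the members and pathway genes. DESeq2 called 1024 genes (192 and 832), 1 of them a pathway gene (*Gramd1c*), the newer quasi-likelihood method 629 (57 and 572), no filter on low counts 1054 (159 and 895), mice 1 and 2 alone 115 (7 and 108), mice 3 and 4 alone 72 (11 and 61), a threshold of 0.05 76 (2 and 74), and library size alone 8 higher. Without 1 mouse the number was 78 (mouse 1) to 162 (mouse 3), with 2 to 9 higher and 76 to 153 lower, and 118 without mouse 2 and 91 without mouse 4.

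Signs of log2 fold changes turned as follows, and the cause was not tested. With library size alone, which shifted the median of all genes to -0.092, *Fdft1* was -0.033, *Pmvk* -0.031, *Mvd* -0.038, *Nsdhl* -0.031, *Insig2* -0.054, *Rnf139* -0.074, and *Rnf145* -0.021. With at least 10 counts in every library, *Rnf139* was -0.002. In mice 1 and 2 alone, *Sqle* was 0.159, *Srebf2* 0.135, *Tm7sf2* -0.225, *Lbr* 0.345, *Hsd17b7* 0.390, *Scap* 0.059, *Mbtps1* 0.163, *Gramd1a* 0.126, and *Gramd1b* 0.056. In mice 3 and 4 alone, *Fdft1* was -0.162, *Mvd* -0.296, *Insig2* -0.027, *Rnf139* -0.125, and *Rnf145* -0.173. Leaving out 1 mouse at a time gave ranges on both sides of 0 for *Fdft1* (-0.114 to 0.257), *Mvk* (-0.128 to 0.368), *Mvd* (-0.085 to 0.279), *Tm7sf2* (-0.268 to 0.433), *Nsdhl* (-0.029 to 0.159), *Hsd17b7* (-0.521 to 0.231), *Srebf1* (-0.086 to 0.010), *Insig2* (-0.046 to 0.120), *Mbtps1* (-0.22 to 0.014), *Rnf139* (-0.165 to 0.154), *Rnf145* (-0.104 to 0.145), and *Stard4* (-0.466 to 0.139). Without changing sign, they ran from 0.093 to 0.339 for *Dhcr7*, from 0.128 to 0.257 for *Ebp*, from 0.003 to 0.120 for *Pmvk*, and from -0.093 to -0.014 for *Scap*. All other alternatives kept the sign of the members and pathway genes.

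With 4 mice, the median standard error of the 8 genes was 0.203 on the log2 scale, beside 0.247 over all genes tested, and their 95% intervals, each given with its gene, lie between -0.78 and 0.96. Low counts limit *Gramd1c*, which was not tested with at least 10 counts in every library and had 0 counts in the FCGR4+ libraries of mice 3 and 4, so that its value in those mice alone is no estimate of a fold.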

Other observations

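A list of 22 genes of proliferation was measured beside the sterol genes. All 22 were tested and all 22 had a log2 fold change above 0, from 0.17 (*Ccnb2*) to 0.95 (*Tk1*), with a median of 0.45 beside -0.0030 over all genes tested. In edgeR's test 0 of the 22 passed, 8 were higher at an unadjusted *P* under 0.05 (3.1% of all genes were), and 12 were higher in FCGR4+ in 4 of 4 mice (8.35% of all genes were). DESeq2 called 4 of them higher, as it did 1.12% of all genes, and the newer quasi-likelihood method 1, as it did 0.333% of all genes. Their summed level was 530.5 to 846.5 normalized CPM in FCGR4+ and 295.9 to 728.5 in FCGR4- libraries, higher in FCGR4+ in 4 of 4 mice.

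Of 12 macrophage marker genes, 10 had a log2 fold change above 0 and 7 were higher in 4 of 4 mice, with a median of 0.28. In edgeR's test 0 of the 12 passed, with 6 higher at an unadjusted *P* under 0.05 (3.1% of all genes), while DESeq2 called 6 higher (1.12% of all genes) and the newer quasi-likelihood method 0. Of 10 monocyte markers 2 were called lower in FCGR4+ by edgeR, as were 1.19% of all genes (median -0.41), of 10 adipocyte markers 0, with 1 higher (*Fabp4*, 0.70) and 1 lower at an unadjusted *P* under 0.05 and 0 by DESeq2 (median -0.27, although their sum was higher in FCGR4+ in 3 of 4 mice), of 8 endothelial markers 0 of the 7 tested, with 2 lower at an unadjusted *P* under 0.05, as were 6.67% of all genes, and 0 by DESeq2 (median -0.675), and of 6 mesothelial markers 1 of the 5 tested (median -1.65). Of 10 genes induced by tissue dissociation, 9 were below 0 with a median of -0.18, while their sum was higher in FCGR4+ in mice 1 and 2 and lower in mice 3 and 4, and 0 passed in edgeR's test or DESeq2, with 1 lower at an unadjusted *P* under 0.05.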
